A study of Drosophila melanogaster and Drosophila simulans and Drosophila erecta with 10 samples.

Results

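Long non-coding RNAs are transcripts that do not appear to encode a protein, and the testis of the fruit fly Drosophila melanogaster is known to express many of them, often in the maturing male germline. The ones described here are the FlyBase genes with an lncRNA: symbol whose mean over the 4 D. melanogaster libraries was at least 2 on the deposited log2 scale. Of 7326 genes listed for this species, 358 carry such a symbol, 231 of these reached the mean of 2, and 224 are described. The rule names 8 long non-coding RNAs to leave out, all of which had changed in the mutant, and 7 of those 8 reached the mean of 2. The set was therefore chosen by the mean level and, for those 8, by the mutant's effect, so that its levels and its share of changed transcripts are descriptions.

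RNA-seq libraries were made from testes of adult flies 3 to 5 days old, kept at 25 °C, with 2 control libraries and 2 libraries of a miR-983 mutant. miR-983 is a microRNA, a short RNA that lowers the transcripts it pairs with, and the labels also call the mutant miR-983KO. The allele, the strain of the control and any marker the flies share are not stated. The series also holds 4 D. simulans libraries and small RNA libraries of D. erecta and D. sechellia, which were not used here.

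Long non-coding RNAs act in several known ways. In the fly, roX1 and roX2 guide the dosage compensation complex that raises transcription of the male X chromosome, and Hsromega gathers RNA-binding proteins into nuclear speckles. Most others are known only by an annotation number beginning with CR, and that holds for 223 of the 224 transcripts here. lncRNA:Yu is the single one with another name.

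The testis origin of the libraries could be seen in the marker genes. All 11 primary spermatocyte markers and 9 of 10 spermatid markers were listed, with a mean log2 value of 7.52 to 7.60 over the spermatid markers in each library, and none passed the test between genotypes. Every listed value lies above 1, so a gene below that is not listed and cannot be followed. Of 4 neuron and 4 ejaculatory bulb and duct markers 0 were listed, and of 6 somatic testis markers 1 (upd1). Early germline markers (3 of 5 listed) and muscle markers (4 of 6 listed) gave no call. The muscle markers had a mean of 2.77 and 2.42 in the controls against 2.54 and 2.67 in the mutants. The only listed accessory gland marker of 7, Acp95EF, stood at 4.16 and 4.12 in the controls against 4.42 and 6.34 in mutant replicates 1 and 2. Fat body markers, 3 of 7 listed, had a mean of 5.59 and 5.57 in the controls against 5.95 and 6.18 in the mutants. Of these 3, Tsf1 rose by 0.80 (limma adjusted p = 0.0103) and NLaz by 0.62 (adjusted p = 0.00771), while Obp99a was at 0.02. The part of these cell types in the differences below was not tested. In whole testes, fewer cells of a type and less RNA per cell cannot be told apart. Sequencing depth is unknown, as read totals were not used here.

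Most of the transcripts were low, and a small group was abundant. Their means ran from 2.02 to 9.59 on the log2 scale with a median of 2.98, while the median over all genes of the table was 3.23. Of the 224, 116 lay between 2 and 3, 72 between 3 and 4, and 14 were at 6 or above. The median in each library was 2.99 and 3.05 in the controls against 2.92 and 2.96 in the mutants. Whether the deposited values were divided by transcript length is not given, so the order of levels may also follow length.

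**Figure D1:**
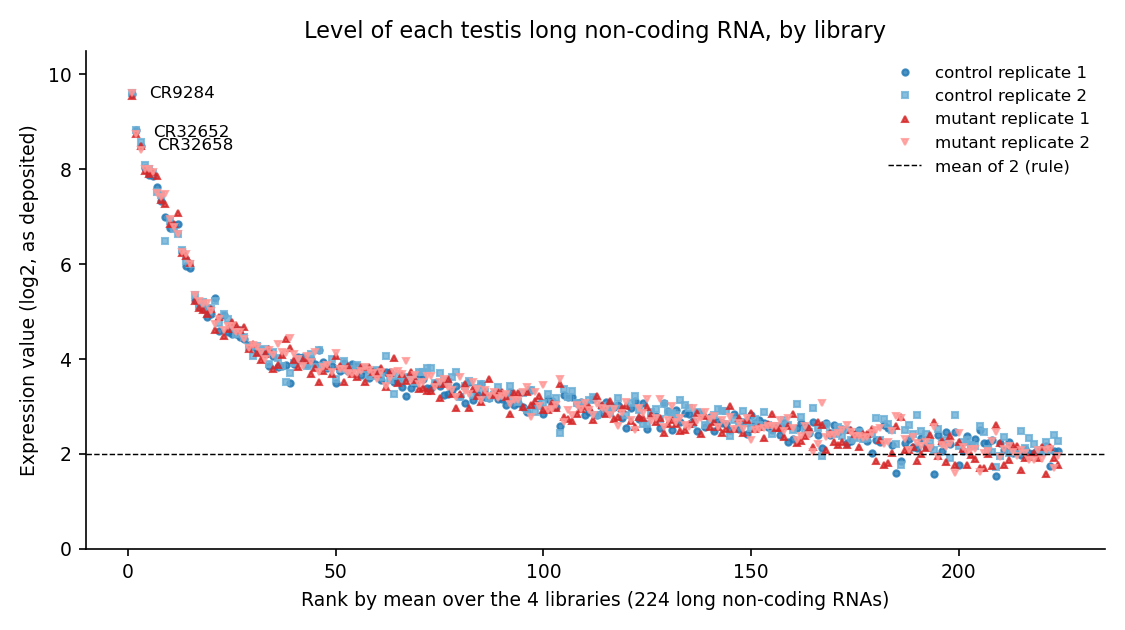
Deposited log2 expression value of each of the 224 long non-coding RNAs in each of the 4 libraries (y axis), ordered by the mean of the 4 (x axis). The 14 transcripts at 6 or above stand at the left, and the dashed line is the mean of 2 used by the rule.

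The 12 most abundant transcripts were led by lncRNA:CR9284, at 9.59 and 9.61 in the controls against 9.56 and 9.60 in the mutants, the 32nd highest value of all genes. It lies beside comr, a meiotic arrest gene needed for transcription in spermatocytes, and comr itself had a mean of 1.46. lncRNA:CR32652 stood at 8.82 in both controls and at 8.74 in both mutants. lncRNA:CR32658 stood at 8.49 and 8.58 in the controls against 8.50 and 8.40 in the mutants. These 3 transcripts varied by at most 0.10 between libraries of a genotype, while lncRNA:CR42767 and lncRNA:CR32690 differed by 0.46 and 0.36 between the mutants. None of the 12 passed the test (limma, Benjamini-Hochberg adjusted p between 0.09 and 0.964). lncRNA:CR32661, lncRNA:CR32657, lncRNA:CR44455, lncRNA:CR32690, lncRNA:CR32660, lncRNA:CR43157, lncRNA:CR42850 and lncRNA:CR42767 had means between 6.80 and 8.01. Their log2 differences between mutant and control ran from -0.07 to 0.11.

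lncRNA:CR43684 differed from the rest of this abundant group. It had values of 6.99 and 6.49 in the controls against 7.28 and 7.47 in the mutants. Both mutants lay above both controls, but the controls were 0.50 apart, and the difference of 0.63 ± 0.15 (SE) did not pass the test (limma adjusted p = 0.09). This SE and those below come from limma and draw on the spread of all genes. They can be smaller than a transcript's own libraries would give. The difference was 0.88 when control replicate 1 was left out and 0.38 when control replicate 2 was. Both of these fits hold a single control library. Their spread comes from the mutant libraries only, of this transcript and of the other genes together. The gap between the controls is no longer in them, so they do not support a change. The transcript lies inside the span of Sytbeta, a synaptotagmin gene, which was itself far lower (mean 2.30) and differed by 0.11 ± 0.09.

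Several of the abundant transcripts lie next to each other. In the gene order of assembly Release 6 plus ISO1 MT, lncRNA:CR32661, lncRNA:CR43157 and lncRNA:CR32660 follow each other, at means of 8.01, 6.87 and 7.39. No other listed gene lies between them when genes that overlap a transcript are left aside. Here that is Sclp (4.46), whose span contains lncRNA:CR32660. lncRNA:CR32657 (7.95) and lncRNA:CR32658 (8.49) form another such pair, inside the spans of the teneurin gene Ten-a (1.89) and of lncRNA:CR43960 (3.47). In all, 52 of the 224 transcripts fall into 24 such runs, the longest of 3 transcripts. Another run of 3, lncRNA:CR43278, lncRNA:CR43279 and lncRNA:CR43835, had nearly equal means of 3.80, 3.71 and 3.77. lncRNA:CR45950 and lncRNA:CR43455 overlap and have the same value in every library (3.40, 3.81, 3.33 and 3.64), so they are a single measurement listed under both names. The 224 transcripts thus hold 223 separate measurements at most.

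At the low end, the rule's limit separated transcripts that differed by less than their libraries did. Just inside lay lncRNA:CR45419 (mean 2.02), lncRNA:CR45055 (2.02) and lncRNA:CR45285 (2.02), and just outside lncRNA:CR44900 (1.98), lncRNA:CR44191 (1.98) and lncRNA:CR44208 (1.96). The libraries of a single genotype differed by up to 0.35 in the 3 inside. lncRNA:CR45055, at 2.06 and 2.40 in the controls against 1.91 and 1.71 in the mutants, did not pass the test (-0.41 ± 0.13 SE, limma adjusted p = 0.222). Without control replicate 1 it was at -0.58. In that fit a lone control leaves only the mutant libraries, of this and the other genes, to give the spread.

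The error behind the low values was larger than for genes in general. The median difference between the 2 control libraries was 0.12 over the 224 transcripts and 0.08 over all genes, and between the 2 mutant libraries 0.13 and 0.10. A gap in the same direction was present within each range of level up to 6, though small in the mutants between 2.5 and 3 (0.116 against 0.108). Between means of 2 and 2.5 the medians were 0.17 in controls and 0.19 in mutants for the 61 long non-coding RNAs, against 0.09 and 0.12 for all 931 genes in that range. Between 4 and 6 they were 0.10 and 0.12 for the 22 long non-coding RNAs, against 0.06 and 0.08 for 1913 genes. Between 6 and 8 the 10 long non-coding RNAs lay above the 614 genes in the controls (0.12 against 0.06) and below them in the mutants (0.08 against 0.09). At 8 and above, where there are 4 long non-coding RNAs, the medians were 0.05 in both genotypes, below the 0.07 and 0.13 of 114 genes.

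**Figure D2:**
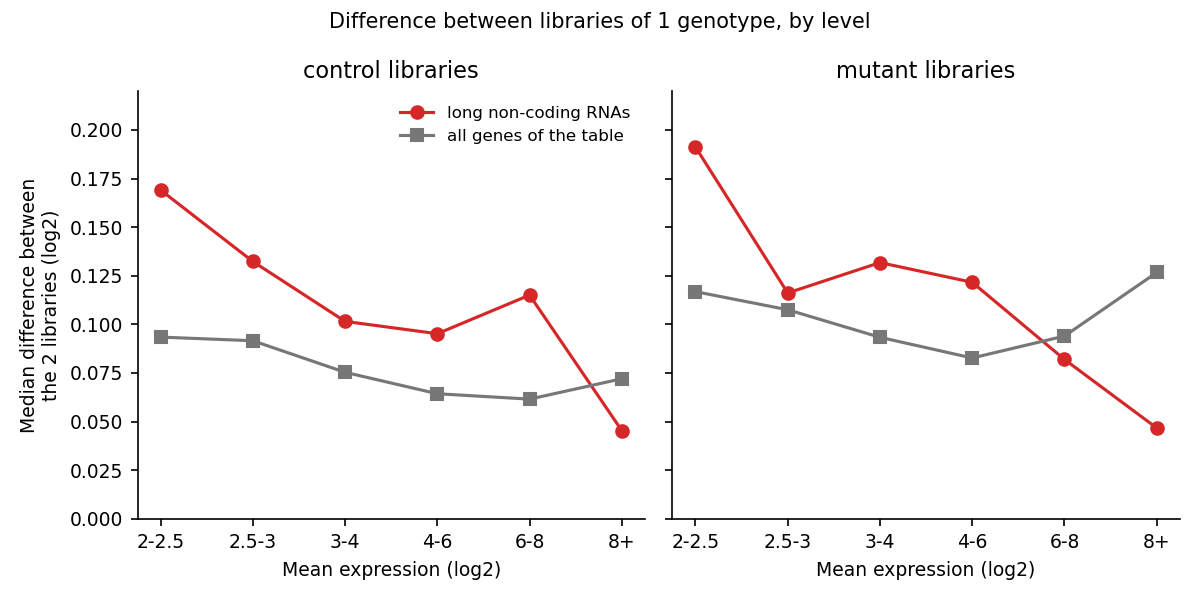
Median absolute log2 difference between the 2 libraries of a genotype (y axis), in bins of mean log2 expression (x axis), for the long non-coding RNAs (circles) and for all genes of the table (squares). Below a mean of 6 the long non-coding RNAs lie above all genes in both genotypes (0.17 against 0.09 in the lowest control bin), and at 8 and above they lie below.

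The least repeatable transcripts were lncRNA:CR43717, lncRNA:CR45634 and lncRNA:CR45155. lncRNA:CR43717, inside the span of ex, a gene of the Hippo growth pathway, stood at 2.13 and 2.81 in the controls against 1.84 and 2.24 in the mutants. lncRNA:CR45634 stood at 2.30 and 2.75 in the controls against 1.85 and 2.50 in the mutants. The genotypes overlapped in both transcripts. lncRNA:CR45155 stood at 1.59 and 2.21 in the controls against 2.59 and 2.79 in the mutants, with no overlap and a difference of 0.79 ± 0.19 (SE) that did not pass the test (limma adjusted p = 0.0929). Without control replicate 1 their differences were -0.77, -0.58 and 0.48 in that order, and lncRNA:CR45155 was at 1.10 without control replicate 2. Each of these fits holds a lone control, so the gap between the controls is no longer in it, and the values do not support a change. lncRNA:CR43717 and lncRNA:CR45155 were picked for that gap. lncRNA:CR45634 was picked for the gap between its mutants (0.65), which stayed in the fit.

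The comparison of genotypes asked which of these transcripts differ between the miR-983 mutant and control libraries. As the strain of the control is not stated, loss of miR-983 and a difference of strain cannot be told apart. Of the 224, 19 passed the test, 8 higher and 11 lower in the mutant (limma with an empirical Bayes trend over all 7326 genes, two-sided, Benjamini-Hochberg adjusted p under 0.05, with 2 libraries in each genotype). That is 8.48% of them (3.57% higher and 4.91% lower), beside 2.28% of all genes (1.05% higher and 1.23% lower). The test draws each variance toward a trend over all genes, while libraries lay further apart for the long non-coding RNAs at most levels (above). The shares are thus not on an equal footing, and the part of this in the calls was not tested. Since the rule took out 7 transcripts for their change, the share describes only what is left. With those 7 added back it was 26 of 231, 12 higher and 14 lower. Leaving out control replicate 1 gave 44 calls and leaving out control replicate 2 gave 31, in fits whose spread comes from the mutant libraries only and in which the lone control is assumed to vary like them. Leaving out a mutant library gave 16 or 17.

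Most differences were small. The median log2 difference over the 224 was -0.04, beside -0.01 over all genes, and it was 0.01 without control replicate 2. The median size of the difference was 0.16, beside 0.07 over all genes, and the median size among the 19 was 0.59. Only lncRNA:CR44413 reached 2-fold. The genotypes did not overlap in 124 of the 224 (55.4%), beside 42.3% of all genes. The 19 had means from 2.09 to 4.96, and 0 of the 14 transcripts at 6 or above passed the test (2 of these 14 have an unadjusted p under 0.05). Of all genes, 7 of 614 (1.14%) passed between 6 and 8 and 0 of 114 at 8 and above. The 0 of 14 thus does not set the long non-coding RNAs apart.

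**Figure D3:**
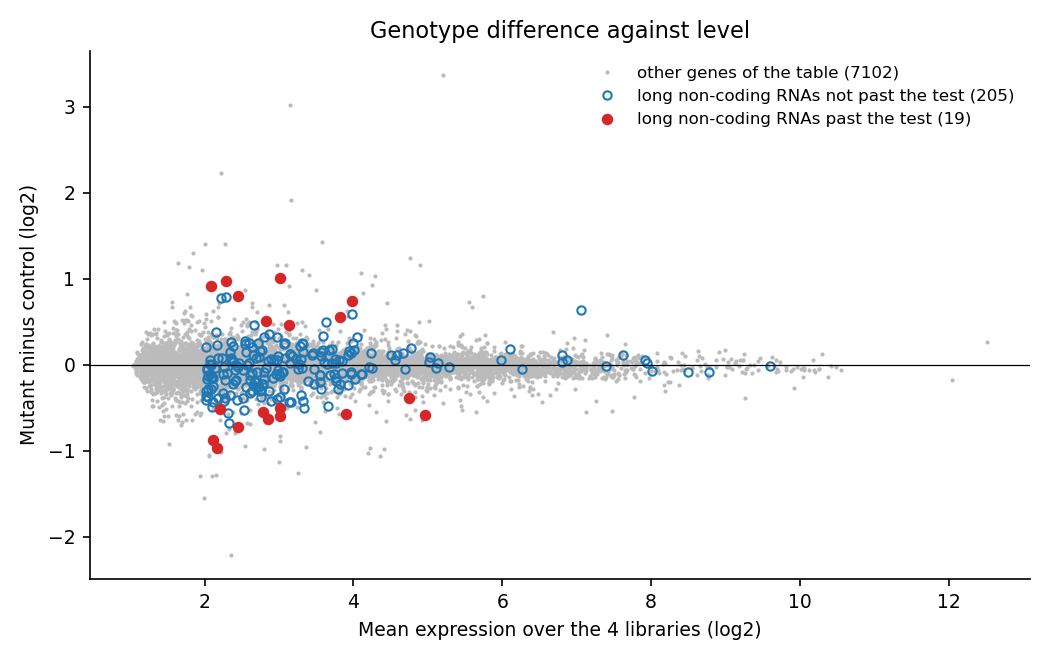
Difference between mutant and control (log2, y axis) against mean log2 expression (x axis) for other genes of the table (grey), the 205 long non-coding RNAs not past the test (open circles) and the 19 past it (filled). The 19 lie at means between 2.09 and 4.96, and the abundant transcripts lie near 0 apart from lncRNA:CR43684 at 0.63.

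The largest rise was lncRNA:CR44413, from 2.59 and 2.43 in the controls to 3.47 and 3.58 in the mutants. This is 2.01-fold, or 1.01 ± 0.09 (SE) on the log2 scale (limma adjusted p = 0.00171), while libraries of the same genotype lay 0.16 and 0.11 apart. Its neighbour lncRNA:CR44412 rose as well, from 3.49 and 3.58 to 4.06 and 4.12 (0.56 ± 0.07, adjusted p = 0.00899). The pair follow each other between the protein-coding genes CG7094 and CG15147. CG7094 differed by -0.05, and CG15147 by 0.38 without passing the test (adjusted p = 0.0537).

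lncRNA:CR40172 rose from 1.85 and 1.76 in the controls to 2.79 and 2.77 in the mutants (0.97 ± 0.09 SE, limma adjusted p = 0.00172). The next listed gene, lncRNA:CR40465, did not follow it (-0.17, adjusted p = 0.595). lncRNA:CR44490 rose from 1.54 and 1.73 to 2.62 and 2.47 (0.91 ± 0.11, adjusted p = 0.00577). lncRNA:CR45103 rose from 3.50 and 3.71 to 4.24 and 4.45 (0.74 ± 0.10, adjusted p = 0.0104). In these 3 transcripts both mutant libraries stood clear of both controls by more than the gap within either genotype.

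The other rises lay nearer to the threshold. lncRNA:CR44300 stood at 2.13 and 1.96 in the controls against 2.61 and 3.08 in the mutants (0.80 ± 0.15 SE, limma adjusted p = 0.0463). Without mutant replicate 2 its difference was 0.56 (adjusted p = 0.0778). lncRNA:CR44309 stood at 2.52 and 2.63 against 2.99 and 3.17 (0.50 ± 0.10, adjusted p = 0.0444), with a difference of 0.41 without that library (adjusted p = 0.13). lncRNA:CR43422 stood at 2.89 and 2.93 against 3.31 and 3.42 (0.46 ± 0.08, adjusted p = 0.0332), with a difference of 0.40 without it (adjusted p = 0.114). lncRNA:CR44300 and lncRNA:CR44309 also missed the threshold with all libraries kept, after quantile normalization (adjusted p = 0.0624 and 0.0621) and without the variance trend (0.07 and 0.0552). In each of the 8 transcripts that rose, the mutant libraries did not overlap the controls, which passing the test on the same libraries all but requires.

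The largest falls were in low transcripts. lncRNA:CR44644 fell from 2.47 and 2.82 in the controls to 1.76 and 1.59 in the mutants (-0.97 ± 0.13 SE, 1.96-fold lower, limma adjusted p = 0.0103). The listed gene before it, lncRNA:CR44643, differed by -0.38 without passing (adjusted p = 0.11). lncRNA:CR43434, which lies between Ald2 and Hex-t1, a gene for a hexokinase, fell from 2.51 and 2.58 to 1.71 and 1.63 (-0.88 ± 0.09, adjusted p = 0.00327). Neither protein-coding neighbour differed past the test (-0.11 for Ald2 and -0.08 for Hex-t1).

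lncRNA:CR45821 fell from 3.11 and 3.23 to 2.57 and 2.50 (-0.63 ± 0.09 SE, limma adjusted p = 0.0103). The listed long non-coding RNAs on either side were at -0.29 (lncRNA:CR43881) and -0.43 (lncRNA:CR44528), neither past the test (adjusted p = 0.534 and 0.0854).

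The most abundant transcript that changed was lncRNA:CR44131, from 5.28 and 5.22 in the controls to 4.61 and 4.73 in the mutants (-0.58 ± 0.07 SE, limma adjusted p = 0.00577). lncRNA:CR44344, which lies beside the splicing factor gene mbl, fell from 4.19 and 4.18 to 3.51 and 3.72 (-0.57 ± 0.09, adjusted p = 0.0168). mbl differed by 0.13 and did not pass. In both long non-coding RNAs each mutant library lay below both controls by more than the mutants lay apart.

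The remaining falls kept most of their size when a single library was left out, but not their call, in fits with a lone library in 1 genotype. lncRNA:CR45630 fell from 2.67 and 2.96 to 2.14 and 2.04 (-0.72 ± 0.12 SE, limma adjusted p = 0.0215), a difference that was -0.67 without mutant replicate 2 (adjusted p = 0.0709). lncRNA:CR44081 stood at -0.59 ± 0.09 (adjusted p = 0.0146), and at -0.54 without mutant replicate 2 (adjusted p = 0.051). lncRNA:CR46215, beside the cell death gene grim, stood at -0.55 ± 0.09 (adjusted p = 0.0191), and at -0.49 without mutant replicate 1 (adjusted p = 0.0593). The genotypes did not overlap in these 3 transcripts, which is no separate support, as the test that picked them used the same libraries. lncRNA:CR46095, inside the span of the zinc-finger gene mld, stood at -0.51 ± 0.09 (adjusted p = 0.0334), and at -0.45 without mutant replicate 1 (adjusted p = 0.0994). lncRNA:CR43905, inside the span of the zinc-finger gene jing, stood at -0.39 ± 0.07 (adjusted p = 0.033), and at -0.32 without mutant replicate 1 (adjusted p = 0.0877). It was the smallest of the 11 falls, and it is named to complete them, after its values were seen.

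lncRNA:CR43605 and lncRNA:CR44300 follow each other inside the span of the protein-coding gene CG33144 and moved in opposite directions. lncRNA:CR43605 fell from 2.40 and 2.53 in the controls to 1.96 and 1.95 in the mutants (-0.52 ± 0.09 SE, limma adjusted p = 0.034), while lncRNA:CR44300 rose (0.80, above). lncRNA:CR43605 was at -0.45 without control replicate 2, at -0.52 without mutant replicate 1 and at -0.51 without mutant replicate 2, with the call lost each time (adjusted p = 0.0665, 0.0817 and 0.0932). CG33144 is not among the listed genes, so its own level could not be set beside them.

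**Figure D4:**
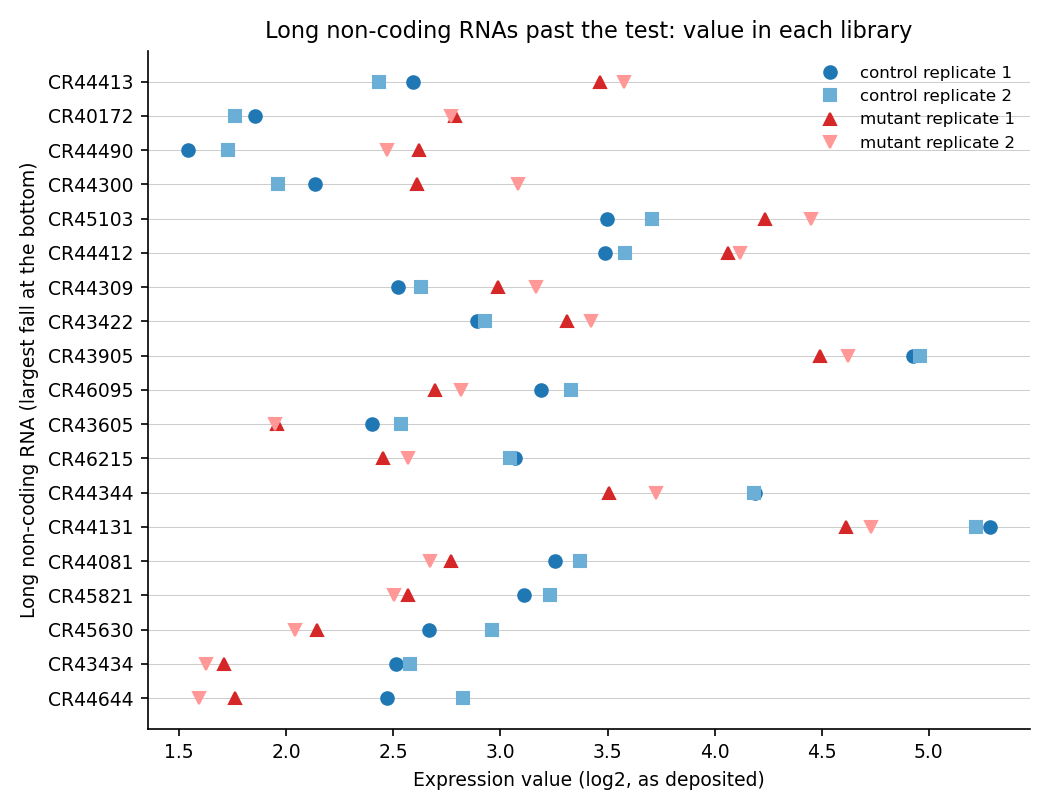
Deposited log2 expression value (x axis) in each of the 4 libraries for the 19 long non-coding RNAs past the test, from the largest fall at the bottom to the largest rise at the top. In each of them the 2 control and the 2 mutant libraries do not overlap, as in 42.3% of all genes. The test that picked the 19 used these same libraries.

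lncRNA:Yu was at 3.59 and 3.72 in the controls against 3.39 and 3.52 in the mutants. The mutants lay below the controls, but the difference of -0.20 ± 0.09 (SE) did not pass the test (limma adjusted p = 0.393).

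The authors' deposited table marks 6 of the 224 as past p 0.05 (2.68%, beside 1.65% of all genes). They are lncRNA:CR44131, lncRNA:CR45103, lncRNA:CR44344, lncRNA:CR44412, lncRNA:CR44413 and lncRNA:CR40172, all among the 19. The same table marks predicted miR-983 targets. It marks 393 genes (5.36%) for miR-983-5p by TargetScan, 350 (4.78%) for miR-983-3p by TargetScan and 294 (4.01%) for miR-983-5p by PITA, but 0 of the 358 listed long non-coding RNAs in each case. Whether the authors searched non-coding transcripts at all is not stated, so the absence of marks says nothing about pairing with miR-983.

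Many of these transcripts share their place in the genome with other genes. In the same gene order, 100 of the 224 overlap the span of at least 1 other annotated gene, 89 of them a protein-coding gene, and 83 lie wholly inside another gene's span. Among the 19 that changed, 6 overlap another gene and 13 overlap none. None of the 6 overlaps a listed gene (0 transcripts), beside only 39 of all 224. How reads were assigned between overlapping genes and whether strand was used are not given, so values of the 100 may hold reads of the other gene.

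The differences of overlapping genes went together more than those of neighbours that do not overlap, though this contrast was not tested. Over 43 overlapping pairs Pearson's r was 0.41 and Spearman's rank correlation 0.41, with the same sign in 28 pairs. Over 421 pairs with the nearest listed gene on either side r was 0.04 and the rank correlation -0.04, with the same sign in 202 pairs (48%). These are descriptions across genes: all pairs come from the same 4 libraries, overlapping genes can share reads, and lncRNA:CR43960 alone enters several of the overlapping pairs. Among the overlapping pairs, lncRNA:CR44068 (0.46) contains the pseudogene CR30374 (0.47), and lncRNA:CR44594 (0.49) lies inside Pex19 (0.20), a peroxisome assembly gene. Of these only the pseudogene passed the test (limma adjusted p = 0.0496). In other pairs the second gene hardly moved, as for lncRNA:CR44017 (0.59) inside gpp (0.02). In others it went the opposite way, as for lncRNA:CR44170 (-0.22) inside vimar (0.15). Of the 19 changed transcripts, 5 have a changed gene as nearest listed neighbour, against 19 of all 224. The same share over all genes was not counted. lncRNA:CR44412 and lncRNA:CR44413 are neighbours of each other and both rose. lncRNA:CR43605 and lncRNA:CR44300 are also neighbours of each other and moved in opposite directions, so each pair is counted from both sides. The last of the 5 is lncRNA:CR43905, which fell while its neighbour CG15233 rose by 0.50 (limma adjusted p = 0.0279).

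**Figure D5:**
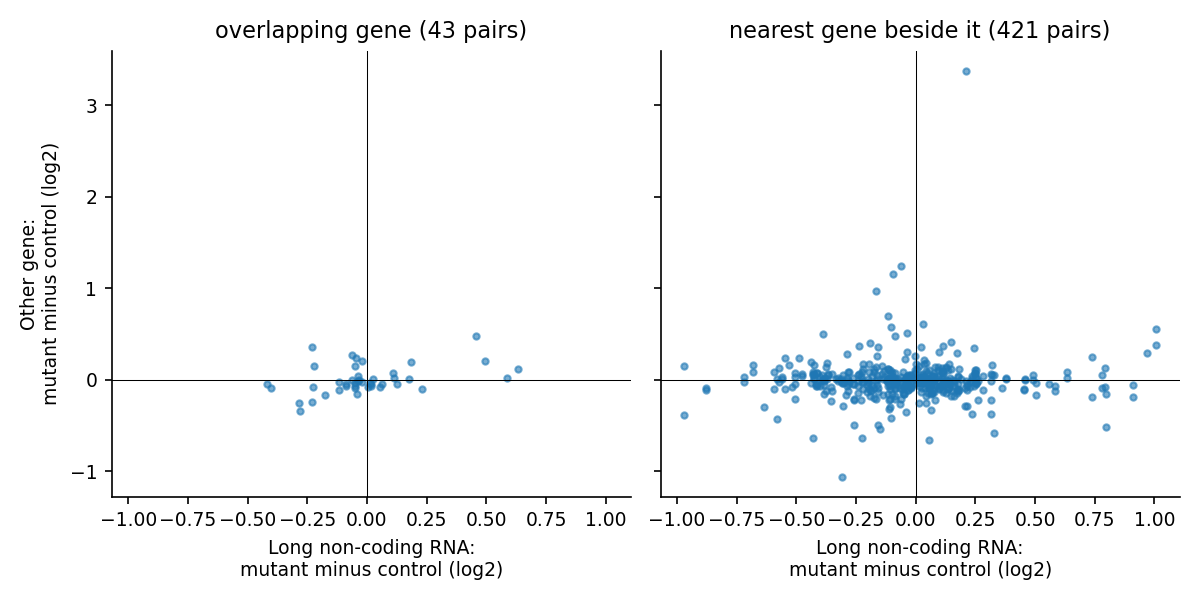
Difference between mutant and control (log2) of a long non-coding RNA (x axis) and of a listed gene overlapping it (left, 43 pairs) or lying nearest beside it (right, 421 pairs). The differences of the overlapping pairs were positively correlated (r = 0.41), and those of the pairs that do not overlap were nearly uncorrelated (r = 0.04).

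Proteins that are known to work with long non-coding RNAs gave no call. Of the dosage compensation list 6 of 8 genes were listed, of the omega speckle and nuclear RNA-binding list 9 of 10, of the core proteins of snoRNA particles 5 of 8, and of the RNA surveillance and turnover list 9 of 10. None of these 29 genes passed the test in either direction (0 genes, with the smallest limma adjusted p at 0.567), and their differences ran from -0.15 to 0.12. The background is 2.28% of all genes, so 0 calls in 29 does not set them apart. roX1, the only listed RNA of the dosage compensation complex, lay under the level of 2, at 1.34 and 1.22 in the controls against 1.19 and 1.54 in the mutants, with overlapping genotypes.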

How the data were processed

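Per the submitters' processing notes, reads were aligned with TopHat, a spliced-read aligner; its version and the build, annotation, counter and strand setting are not stated. The authors deposited 1 log2 expression value per gene and library, all above 1. What was logged, with which pseudocount and scaling, is not stated. The authors' log2 fold change equals the difference of the column means within 1.5e-06. The authors also deposited Yes or No marks for p under 0.05 by DESeq2 and for TargetScan and PITA targets, per the file headers.

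Symbols were matched for 7195 of 7326 identifiers. All genes were fitted with limma 3.58.1 in R 4.3.3 (empirical Bayes trend, genotype only, no filter, no added pseudocount), and the method was tested on simulated data. Nothing says whether the 2 libraries of a genotype came from separate flies beyond the design text, which calls them biological replicates. Overlap and neighbourhood come from gene spans of assembly Release 6 plus ISO1 MT, in which all 224 transcripts could be placed. The transcripts and lists were chosen with earlier results of these data known. Named are the 12 highest, those past the threshold (up to 10 per direction), 3 on each side of the limit, the 3 least repeatable, those with a name, and their overlapping or neighbouring genes. Transcript lengths, chromosomes, promoter sequences and promoter motifs were planned but not used here. The spermatid marker schuma was counted as not listed, as it matched no symbol. Alternatives were a replicate block, leaving out each library, other scalings, no trend, a pseudocount of 1, a filter and other limits on level.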

Additional observations from a re-analysis of the deposited data

How the results depend on the processing

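With the replicate number as a block, 503 genes and 58 of the long non-coding RNAs passed, and all 19 kept their call (0 lost). The numbers are not shown to pair the libraries (correlation of same-numbered deviations 0.147, with 2 numbers only), so the block is given here alone. With 1 library left out, which leaves a genotype with a lone library assumed to vary like the other genotype, calls ranged from 118 to 304 over all genes and from 16 to 44 among the long non-coding RNAs. A limit of 3 on the level left 108 transcripts with 9 calls. By level, 9.72% passed between 3 and 4, 9.09% between 4 and 6 and 0 at 6 and above. Of all genes, 3.02% passed between 3 and 4, 2.4% between 4 and 6, 1.14% between 6 and 8 and 0 above. The neighbour correlation was 0.41 with overlapping genes in place of the nearest. The other alternatives kept both counts within 1.5 times. Of the 19 calls, 10 held under each refit: lncRNA:CR44413, lncRNA:CR40172, lncRNA:CR44490, lncRNA:CR45103, lncRNA:CR44412, lncRNA:CR44644, lncRNA:CR43434, lncRNA:CR45821, lncRNA:CR44131 and lncRNA:CR44344. Quantile normalization and a fit without trend each lost 3 calls. Small differences of abundant transcripts turned sign: under quantile normalization those of lncRNA:CR9284 (0.0395), lncRNA:CR32652 (0.00705) and lncRNA:CR32660 (0.0232), and with 1 library left out those of lncRNA:CR9284 (-0.0432 to 0.00478), lncRNA:CR32657 (-0.0452 to 0.076), lncRNA:CR32690 (-0.0727 to 0.29), lncRNA:CR32660 (-0.0821 to 0.0405), lncRNA:CR43157 (-0.022 to 0.13), lncRNA:CR42850 (-0.0124 to 0.0713) and lncRNA:CR42767 (-0.11 to 0.34). The cause of these changes was not tested. The depth of the libraries is unknown, and with 2 per genotype a transcript that did not pass is not shown to be unchanged.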

Other observations

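The 127 listed long non-coding RNAs with a mean under 2 held 10 calls (limma adjusted p under 0.05), 5 higher and 5 lower in the mutant, which is 7.87% of them beside 2.28% of all genes; 1 of the 8 left out by name is among these 127. Identical values in all 4 libraries are not particular to the pair given above: 219 of the 7326 genes share their 4 values with at least 1 other gene, among them lncRNA:CR44097 with the protein-coding gene CG6000 (1.89 and 1.80 in the controls, 1.55 and 1.56 in the mutants).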
